A study of Mus musculus with 104 samples.

Results

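Muscle stem cells from old calorie-restricted mice were followed over the day, and the 26 arrays of that arm, called aged CR, are described here, beside which the series holds 22 arrays of adult control, 32 of adult CR (calorie-restricted) and 24 of aged control mice. Arrays were taken into the arm by title, those lacking the word adult and naming the calorie restriction diet. The cells, also called satellite cells, came from skeletal muscle of Per1-Venus BAC transgenic mice of C57B6/J background, a reporter strain, and every arm of the series carried that transgene. The old mice were 55 to 69 weeks old when a 3-week adaptation began, in which their food was cut by 10% a week. They then received 30% less food than mice fed without limit for 25 weeks, which put them at 83 to 97 weeks. Cells were taken at T0, T4, T8, T12, T16 and T20, with 5 arrays at T0 and T12 and 4 arrays at each of the other times. The design text writes these times as ZT, by convention hours after lights on. It also states that the mice killed on a day belonged to 1 time point, so a collection day never held 2 times. The gate used to isolate the cells, the hour of feeding and the light schedule are not given in the sources used here. The titles call the arrays biological replicates. The design text gives 4 mice per time and diet group, and gives no reason for the fifth array at T0 and T12. For comparison, the aged control arm held 24 arrays of mice of the same age fed a control diet without limit, and the adult CR arm held 32 arrays of mice that were 19 to 29 weeks old at the start of adaptation and had the same restriction. The adult control arrays, from mice fed without limit, enter the fit that all arms share and no comparison. Their age tag of 83 to 97 weeks conflicts with the word adult in their titles.

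The circadian clock is a loop of transcription factors. ARNTL pairs with CLOCK or NPAS2 and switches on the Per and Cry genes and genes of the REV-ERB and PAR bZIP families, whose products then repress or modulate the activators, so activators and repressors peak at opposite times of day. Satellite cells are the resident stem cells of muscle, mostly quiescent in the adult, and glucocorticoids, feeding and temperature are known to pass time-of-day signals to peripheral tissues. Many markers of these cells were bright in the arm. The day mean, in log2 units, was 12.4 for Gpx3, 12.1 for Sdc4, a satellite cell proteoglycan, 9.91 for Pax7, the defining factor of the lineage, and 9.46 for Myf5. Vcam1 (8.29), Cdh15 (7.90) and Calcr (6.04) were dimmer. Transcripts of other cell types were also measured, with day means of 11.4 for Myh11 of smooth muscle, 10.8 for Pmp22 of Schwann cells and 10.8 for Gsn of fibroadipogenic progenitors. Endothelial Cdh5 averaged 7.30, macrophage Cd68 8.08 and myofibre Atp2a1 8.28. Pairs of arrays in the arm correlated at 0.943 or above over the 11853 genes kept for testing. Array medians over all probe sets lay between 4.87 and 4.94.

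Of 11853 genes tested, 1951 followed a 24 h cosine in the arm, which is 16.5% (limma's moderated F test, Benjamini-Hochberg adjusted p under 0.05). The amplitude, in log2 units, is the height of the curve's peak above the day mean and had a median of 0.30 among the rhythmic genes and 0.14 among all genes. Most swings were small. Trough and peak differed by over 1.5-fold in 1008 genes and by over 2-fold in 183. Fitted peaks were sorted into 6 windows of 4 h, each centred on a collection time. The window around T0 held 415 genes, T4 held 241, T8 held 310, T12 held 353, T16 held 238 and T20 held 394. In bins of 2 h, peaks were most frequent between 22 and 24 h, with 252 genes, and between 20 and 22 h, with 244 genes. A second group stood between 10 and 12 h with 200 genes, and the fewest peaks, 105, fell between 16 and 18 h. Of the rhythmic genes, 53.7% peaked in the windows from T16 to T0 and the rest from T4 to T12. With quantile normalization added to the deposited values that share was 44.4%, so which side of the day held more peaks turned with the scaling. The standard error of a peak time had a median of 1.01 h. The highest of the 6 time-point means lay at the window's own time for 60.7% of the rhythmic genes, and there or at a neighbouring time for 99.6%.

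**Figure D1:**
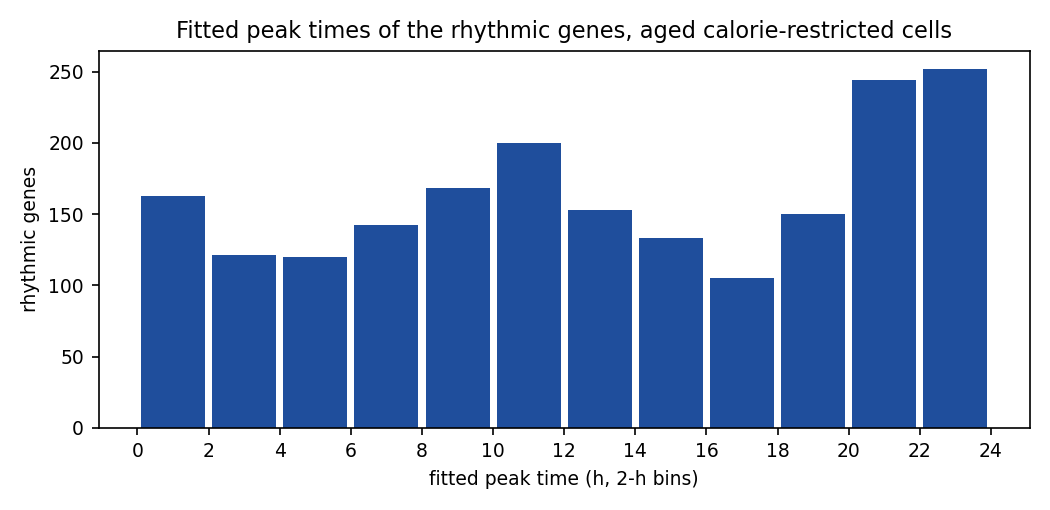
Number of rhythmic genes (vertical axis) by fitted peak time in 2-h bins (horizontal axis, hours) for the 1951 genes that followed a 24 h cosine in aged calorie-restricted cells. The tallest bins lie between 20 and 24 h and a second rise lies between 10 and 12 h.

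A test that lets the 6 time-point means take any shape called 2484 genes, 21.0% of those tested. The cosine and the 6-level test shared 1558 genes, the 6-level test alone added 926, and 393 were called by the cosine alone. Cosine calls over all genes numbered 1408 without T0 arrays of every arm, 1458 without T20 arrays and 1472 in the arm fitted alone. They numbered 1610 with marker scores of Schwann cells, tenocytes and myofibres as covariates, and 2028 with quantile normalization. List counts under these alternatives are to be read against those numbers, not against 1951.

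Clock genes were among those with the widest swings. Of 19 tested members of a list of core clock and clock output genes, 14 were rhythmic, 73.7% against the 16.5% of all genes. The activators peaked between 18.9 h (Clock) and 21.6 h (Npas2), the Per genes between 8.87 h (Per1) and 11.6 h (Per2). Arntl, the obligate activator, had the largest amplitude of any rhythmic gene, 1.55, while the median over the 19 tested members was 0.43. Its arrays read 6.97, 6.14, 7.33, 6.39 and 6.72 at T0, 5.79, 4.96, 5.51 and 5.18 at T4, and 3.86, 5.54, 4.50 and 5.11 at T8. They read 5.18, 4.81, 4.95, 5.10 and 4.78 at T12, 7.5, 7.08, 6.01 and 7.72 at T16, and 8.12, 7.22, 8.05 and 7.23 at T20. All arrays of T4, T8 and T12 lay below every array of T16, T20 and T0. The fitted curve peaked at 20.05 h and rose 8.59-fold from trough to peak (adjusted p = 4.52e-14). Npas2, the partner that can replace CLOCK, read 8.04, 8.53, 7.94, 7.67 and 7.996 at T0, 7.48, 7.36, 7.37 and 7.51 at T4, and 7.23, 7.01, 7.001 and 7.49 at T8. Later values were 6.96, 7.16, 7.22, 7.16 and 6.96 at T12, 7.93, 7.44, 7.51 and 7.61 at T16, and 8.08, 8.14, 7.77 and 8.32 at T20. Every T12 array of Npas2 was below every T0, T16 and T20 array, and the curve peaked at 21.6 h with a 2.11-fold range (adjusted p = 4.84e-09). Clock itself peaked at 18.9 h with an amplitude of 0.28 (adjusted p = 0.0218).

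Repressors and output factors peaked in the other part of the day. Nr1d2, a REV-ERB receptor that represses Arntl, read 8.38, 8.28, 8.55, 8.81 and 8.43 at T0, 8.57, 9.06, 9.17 and 9.21 at T4, and 8.89, 9.19, 9.03 and 9.27 at T8. From T12 on it read 8.57, 8.85, 8.68, 8.92 and 8.81 at T12, 7.68, 7.60, 7.83 and 7.63 at T16, and 7.73, 7.74, 7.30 and 7.88 at T20. Its T16 and T20 arrays lay below all others, and its curve peaked at 6.55 h with a 3.04-fold range (adjusted p = 4.84e-14). Dbp, a PAR bZIP factor that carries clock time to D-box genes, gave 6.52, 7.13, 5.95, 7.12 and 6.98 at T0, 7.92, 7.88, 7.51 and 7.87 at T4, and 8.19, 8.60, 7.54 and 8.41 at T8. It then gave 7.04, 7.14, 7.07, 7.49 and 8.10 at T12, 6.08, 6.03, 6.44 and 6.16 at T16, and 7.21, 6.38, 6.39 and 5.94 at T20. Values of T4 and T8 were the highest as a group, although 1 T12 array reached them, and the peak was at 6.92 h with a 3.94-fold range (adjusted p = 2.43e-09).

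Per2 and Per3 encode the repressors that close the loop. Per3 measured 7.56, 6.996, 6.61, 7.42 and 7.29 at T0, 7.62, 7.95, 7.79 and 7.75 at T4, and 8.43, 8.75, 8.23 and 9.14 at T8. In the later samples it measured 8.70, 8.29, 9.31, 8.98 and 9.31 at T12, 7.55, 8.37, 7.78 and 8.14 at T16, and 6.80, 6.94, 6.57 and 6.57 at T20. All T20 arrays were below every array of the other times except 1 of T0, T8 and T12 were the highest groups, and the 4.29-fold curve peaked at 10.1 h (adjusted p = 1.86e-10). Per2 gave 5.44, 6.83, 6.51, 6.51 and 6.42 at T0, 7.44, 7.76, 7.70 and 7.11 at T4, and 7.82, 8.60, 8.23 and 8.72 at T8. The remaining arrays gave 8.51, 8.89, 8.84, 8.53 and 8.63 at T12, 7.87, 7.69, 7.99 and 7.65 at T16, and 7.86, 6.98, 7.87 and 7.99 at T20. All 5 T0 arrays were below every other array, and the curve peaked at 11.6 h with a 3.88-fold range (adjusted p = 1.86e-10). Its 6 means departed from the 24 h cosine by limma's test (adjusted p = 0.0223).

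The other rhythmic members of the list peaked between 8 and 12 h, apart from Nfil3, the D-box repressor, which peaked at 17.9 h. Per1, the third Per gene, had its maximum at 8.87 h, Klf9 at 9.47 h, Tef, a relative of Dbp, at 10.1 h, Wee1, the cell cycle kinase that clock factors drive, at 10.2 h, Hlf at 11.1 h and Ciart, a repressor of the activators, at 11.5 h. The strain carries Per1 regulatory sequence in its transgene, and whether the Per1 probe set reads endogenous transcript alone was not tested. No rhythm was called for Cry2 (amplitude 0.30, adjusted p = 0.157), Usp2 (0.24, 0.167), Rora (0.21, 0.0514), Bhlhe41 (0.17, 0.147) or Bhlhe40 (0.10, 0.488). Leaving out 1 array ended the call of Clock (T8 replicate 2), Ciart (T0 replicate 1 or T0 replicate 2) and Klf9 (T0 replicates 1, 2, 4 or 5 or T12 replicate 3), while the other 11 rhythmic clock genes kept theirs in all 26 omissions.

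**Figure D2:**
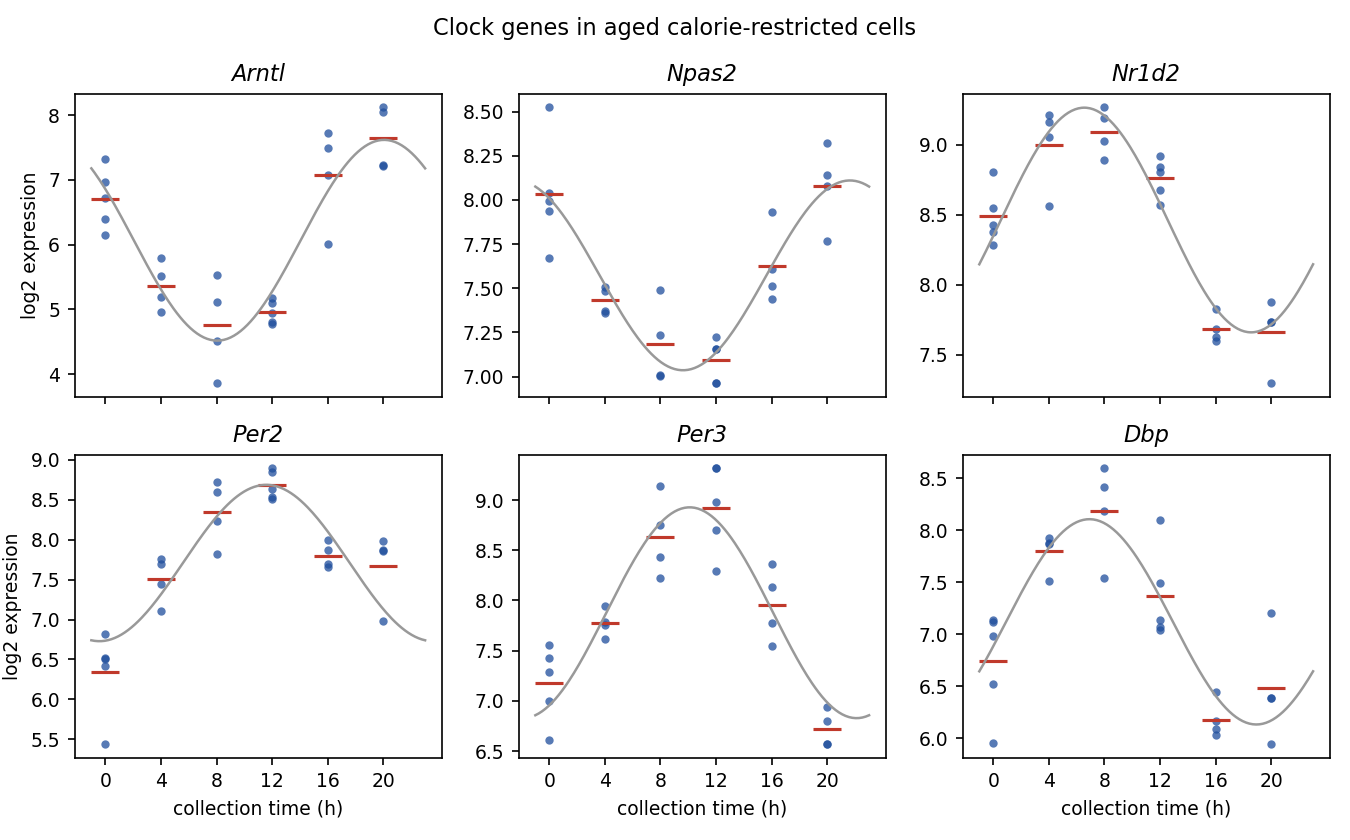
Log2 expression (vertical axes) by collection time in hours (horizontal axes) for 6 clock genes in aged calorie-restricted cells, with 1 dot per array, a red bar at each time-point mean and the fitted 24 h cosine in grey. Arntl and Npas2 are high at T20 and T0, Nr1d2 and Dbp at T4 and T8, and Per2 and Per3 at T8 and T12.

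Sequences at the gene starts were read for the motifs by which clock factors bind. RefSeq promoters of assembly GRCm38.p6, 250 bases before to 50 after a start, were found for 12 of the 14 rhythmic clock genes, with 17 promoters in all. The E-box CACGTG, bound by ARNTL pairs, was searched on both strands, as were the D-box (TTATGTAA or TTACGTAA) and the core of the ROR element, TAGGTCA, to which REV-ERB and ROR receptors bind. No motif contains another, and each was counted separately. An E-box was present in 4 of the 17 promoters (23.5%), those of Ciart and Per1 and 2 of Tef, against 7.15% of all 32851 promoters and 9.67% of those of the genes tested. A D-box was in 1 (5.88%, against 1.06% of all) and a ROR element in 2 (11.8%, against 2.61% of all). Of the 21 promoters of all tested clock members, rhythmic or not, 5 held an E-box (23.8%), 1 a D-box and 2 a ROR element. The list was chosen by function and holds known targets of these factors, so these shares are no test. The 250 bases before the start are shown for Ciart with 3 E-boxes, Per1 with 1 E-box, Per3 with 2 D-boxes and Nfil3 with 1 ROR element, because these genes span the early and the late arm of the clock. For Arntl the only match lay just after the start and a piece of 30 bases is shown. Capitals mark the motifs and each sequence runs 5′ to 3′ on the gene's strand. Ciart lies on the minus strand at chr3:95882229-95882478, Per1 on the plus strand at chr11:69098699-69098948, Per3 on the minus strand at chr4:151044666-151044915, Nfil3 on the minus strand at chr13:52981040-52981289, and the Arntl piece on the plus strand at chr7:113207529-113207558.
Ciart: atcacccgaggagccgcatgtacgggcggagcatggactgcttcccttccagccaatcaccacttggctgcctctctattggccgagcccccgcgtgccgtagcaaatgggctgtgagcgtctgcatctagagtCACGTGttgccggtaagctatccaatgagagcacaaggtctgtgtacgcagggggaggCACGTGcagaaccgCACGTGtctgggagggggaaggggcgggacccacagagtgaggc
Per1: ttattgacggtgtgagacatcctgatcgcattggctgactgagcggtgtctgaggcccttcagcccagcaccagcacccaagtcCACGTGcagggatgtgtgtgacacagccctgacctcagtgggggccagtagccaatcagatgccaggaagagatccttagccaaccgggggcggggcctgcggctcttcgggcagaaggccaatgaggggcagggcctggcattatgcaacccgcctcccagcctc
Per3: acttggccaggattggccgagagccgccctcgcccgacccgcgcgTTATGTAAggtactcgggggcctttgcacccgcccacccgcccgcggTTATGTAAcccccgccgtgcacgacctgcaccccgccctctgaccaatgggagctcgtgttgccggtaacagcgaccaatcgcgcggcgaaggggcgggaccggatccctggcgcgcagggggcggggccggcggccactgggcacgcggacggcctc
Nfil3: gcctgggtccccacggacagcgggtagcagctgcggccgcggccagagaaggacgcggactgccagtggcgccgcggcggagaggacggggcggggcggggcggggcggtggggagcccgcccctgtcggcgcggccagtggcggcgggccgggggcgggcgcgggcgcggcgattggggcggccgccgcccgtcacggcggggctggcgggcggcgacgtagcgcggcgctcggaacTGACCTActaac
Arntl: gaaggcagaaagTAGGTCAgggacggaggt

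Ciart and Per1, with E-boxes, peaked at 11.5 and 8.87 h. Nfil3 and Arntl, with ROR elements, peaked at 17.9 and 20.05 h. Across the 6 peak windows the share of promoters with an E-box ran from 7.31% (T20) to 13.6% (T4), and the share with a ROR element from 0.685% (T20) to 3.06% (T12). A match is a description of the letters in the window.

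The leading genes of each window, clock genes included, were taken as the 8 of largest amplitude. In the T4 window these were Hopx, Vipr2, Cpt1a, 3110082I17Rik, Srpx2, Eci2, Exoc2 and Nfs1, with peaks from 2.30 h (Nfs1) to 5.68 h (Vipr2). Hopx, a homeodomain-only cofactor, read 6.39, 7.17, 6.58, 5.66 and 5.83 at T0, 7.22, 6.98, 7.22 and 5.71 at T4, and 7.54, 5.96, 7.30 and 7.80 at T8. It read 5.59, 6.02, 5.92, 5.56 and 5.96 at T12, 5.64, 5.29, 5.12 and 4.62 at T16, and 5.999, 6.35, 6.27 and 5.95 at T20 afterwards. The T8 and T4 arrays were mostly the highest, with 1 low array at each, and T16 was the lowest group (range 3.05-fold, adjusted p = 7.26e-04). Vipr2, a receptor of vasoactive intestinal peptide, had an amplitude of 0.62.

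The T8 window was led by Sphk2, Dbp, Nr1d2, Ccn2, Trp53inp1, Tspan4, Gabrr2 and Hspb7. Sphk2, a sphingosine kinase, overlaps Dbp on the genome, and whether its probe set reads Dbp transcript was not tested. It read 6.403, 7.27, 6.87, 7.48 and 7.002 at T0, 8.13, 8.33, 8.11 and 8.10 at T4, and 8.85, 9.18, 8.94 and 9.11 at T8. Its later values were 8.22, 8.39, 8.54, 8.76 and 8.67 at T12, 6.74, 6.74, 7.33 and 6.48 at T16, and 6.37, 6.21, 6.34 and 6.03 at T20. The arrays of T4, T8 and T12 were all above those of T16, T20 and T0, and the curve peaked at 8.14 h with a 7.01-fold range (adjusted p = 4.18e-17). Ccn2, a secreted matricellular protein and YAP target, had an amplitude of 0.79 and peaked at 7.31 h. Trp53inp1, a p53-induced gene, peaked at 8.23 h with 0.74, and the tetraspanin Tspan4 at 9.31 h with 0.66.

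The T12 leaders were Per3, Per2, Fmo2, Fa2h, Zbtb16, Fam107a, Fkbp5 and Tsc22d3. Fa2h, which hydroxylates fatty acids of myelin lipids, peaked at 11.4 h with an amplitude of 0.82, and Fam107a at 11.1 h with 0.80. Fmo2, a flavin monooxygenase, peaked at 13.9 h with 0.89. Fkbp5, Zbtb16 and Tsc22d3 are glucocorticoid-induced genes and are described with that group. Several leading genes overlap another gene on the genome, Per3 with Uts2, Nfs1 with Romo1, Tspan4 with Chid1, Ppip5k1 with Map1a and Myo19 with Pigw, and strand was not tested.

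In the T16 window Fbln7, Ston2, Mfap3l, Ppip5k1, Arf2, Myo19, Npy and Syt11 had the largest amplitudes. Fbln7, a fibulin of the extracellular matrix, was dim, with 3.38, 3.97, 4.27, 3.997 and 3.79 at T0, 3.43, 4.19, 4.07 and 3.81 at T4, and 5.03, 4.59, 4.93 and 4.68 at T8. Later readings were 5.48, 4.71, 4.93, 4.999 and 5.998 at T12, 5.29, 5.67, 5.04 and 5.09 at T16, and 4.23, 5.27, 4.74 and 5.08 at T20. Arrays of T0 and T4 were all below those of T8, T12 and T16, and the curve peaked at 14.1 h with a 2.98-fold range (adjusted p = 1.93e-05). Some values of Fbln7 lay below 4.50, the mean level under which probe sets were left out, where differences are understated. Npy, neuropeptide Y, peaked at 14.9 h with an amplitude of 0.63, and Myo19, a mitochondrial myosin, at 15.7 h with 0.63.

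Arntl, Crybg1, Mrln, Cyb561, Btbd10, Ttc7b, Disp1 and Abat led the T20 window. Crybg1 had an amplitude of 1.01 (peak 20.7 h) and Mrln, which encodes the muscle micropeptide myoregulin, 0.92 (peak 21.2 h). Abat, the GABA transaminase, read 8.36, 8.62, 8.60, 9.28 and 8.60 at T0, 8.02, 8.27, 7.46 and 7.31 at T4, and 7.18, 7.89, 7.29 and 8.36 at T8. It went on with 8.33, 8.92, 8.88, 8.79 and 8.31 at T12, 9.07, 9.29, 9.05 and 8.10 at T16, and 9.07, 9.36, 9.05 and 8.82 at T20. T4 and T8 were the lowest groups, 1 T8 array reached those of T0 and T12, 1 T16 array was as low, and the curve peaked at 18.3 h with a 2.73-fold range (adjusted p = 9.82e-07).

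The T0 window was led by Cdh4, C1qtnf3, Iqsec3, Mamstr, Tktl1, Enah, Frem1 and Duxbl1. Cdh4, the adhesion molecule R-cadherin, read 8.08, 7.99, 7.83, 8.43 and 7.80 at T0, 8.29, 7.15, 7.41 and 7.86 at T4, and 6.91, 6.54, 7.17 and 6.13 at T8. It read 6.36, 6.10, 5.82, 6.43 and 6.36 at T12, 6.80, 7.03, 6.47 and 6.69 at T16, and 7.55, 7.80, 7.80 and 7.43 at T20 at the later times. All T0 arrays were above every T8, T12 and T16 array, the highest T20 arrays touched the lowest of T0, and the curve peaked at 23.97 h with a 3.56-fold range (adjusted p = 1.39e-12). Mamstr, a coactivator of MEF2, had an amplitude of 0.70 and peaked at 23.05 h. Enah, an actin regulator, peaked at 0.83 h with 0.66, and Frem1, a basement membrane protein, at 23.7 h with 0.65. The call of Duxbl1 was lost in 18 of 26 single-array omissions.

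Genes that glucocorticoids induce were low at T0 in this arm. Of 15 tested members of a list of such genes, 8 were rhythmic (53.3% against 16.5% of all genes), with 3 peaks in the T8 window, 4 in T12 and 1 in T16. The mean of all 15 members lay 0.51 below its day mean at T0 (SD 0.16, n = 5) and 0.22 above at T8 (SD 0.04, n = 4). Fkbp5, a co-chaperone of the glucocorticoid receptor, read 6.84, 6.90, 7.27, 7.05 and 6.73 at T0, 9.23, 9.10, 8.99 and 9.22 at T4, and 9.10, 9.09, 9.24 and 9.38 at T8. From T12 its arrays read 9.28, 8.98, 9.54, 8.74 and 9.03 at T12, 9.14, 8.27, 8.30 and 8.26 at T16, and 8.26, 8.78, 8.79 and 9.21 at T20. The 5 T0 arrays were below all 21 others, with a T0 mean of 6.96 against 9.21 at T8. By the 6-level test the time points differed (adjusted p = 1.11e-11), and the cosine test gave an adjusted p of 0.00796. Zbtb16, the factor PLZF, gave 7.37, 6.67, 7.96, 7.33 and 8.32 at T0, 10.12, 10.04, 9.96 and 10.17 at T4, and 9.94, 10.17, 9.82 and 10.15 at T8. It gave 9.73, 9.84, 10.59, 9.24 and 9.99 at T12, 9.69, 8.80, 8.84 and 9.18 at T16, and 9.72, 9.54, 9.23 and 10.58 at T20 later in the day. Its T0 arrays too were below all others, and the time points differed (adjusted p = 1.71e-09). Tsc22d3, which encodes GILZ, had time-point means of 7.23 at T0, 8.80 at T4, 9.005 at T8, 9.39 at T12, 8.48 at T16 and 8.71 at T20 (adjusted p of the 6 levels = 6.48e-10).

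These 3 curves were not cosines. The means of Fkbp5 and Zbtb16 were level from T4 to T12, lower at T16 and lowest at T0, and both departed from the 24 h cosine (adjusted p = 8.41e-06 and 1.23e-05). With T0 arrays of every arm left out, 2 of 15 members were rhythmic, and 1408 of all 11853 genes. Per1, Klf9, Mt1, a metallothionein, Cdkn1a, the p21 cell cycle inhibitor, and Sult1a1, a sulfotransferase, made up the other rhythmic members, with peaks from 8.87 h (Per1) to 15.6 h (Cdkn1a), and 7 members were not called. The Schwann cell marker score moved the same way, lowest at T0 with array values of 8.32 to 8.76 against 8.86 to 9.29 at T12. With the Schwann cell, tenocyte and myofibre scores as covariates 5 of 15 glucocorticoid-induced genes were rhythmic, and 1610 of all 11853 genes. Fkbp5, Zbtb16 and Klf9 lost their cosine call in that fit, and Tsc22d3 kept it. The cosine call of Zbtb16 (adjusted p = 0.0463) was lost when any 1 of the 5 T0 arrays, the 4 T8 arrays or T12 replicates 1, 2, 3 and 5 was left out. Nr3c1, the glucocorticoid receptor itself, peaked at 21.6 h with an amplitude of 0.32 (adjusted p = 0.00285).

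**Figure D3:**
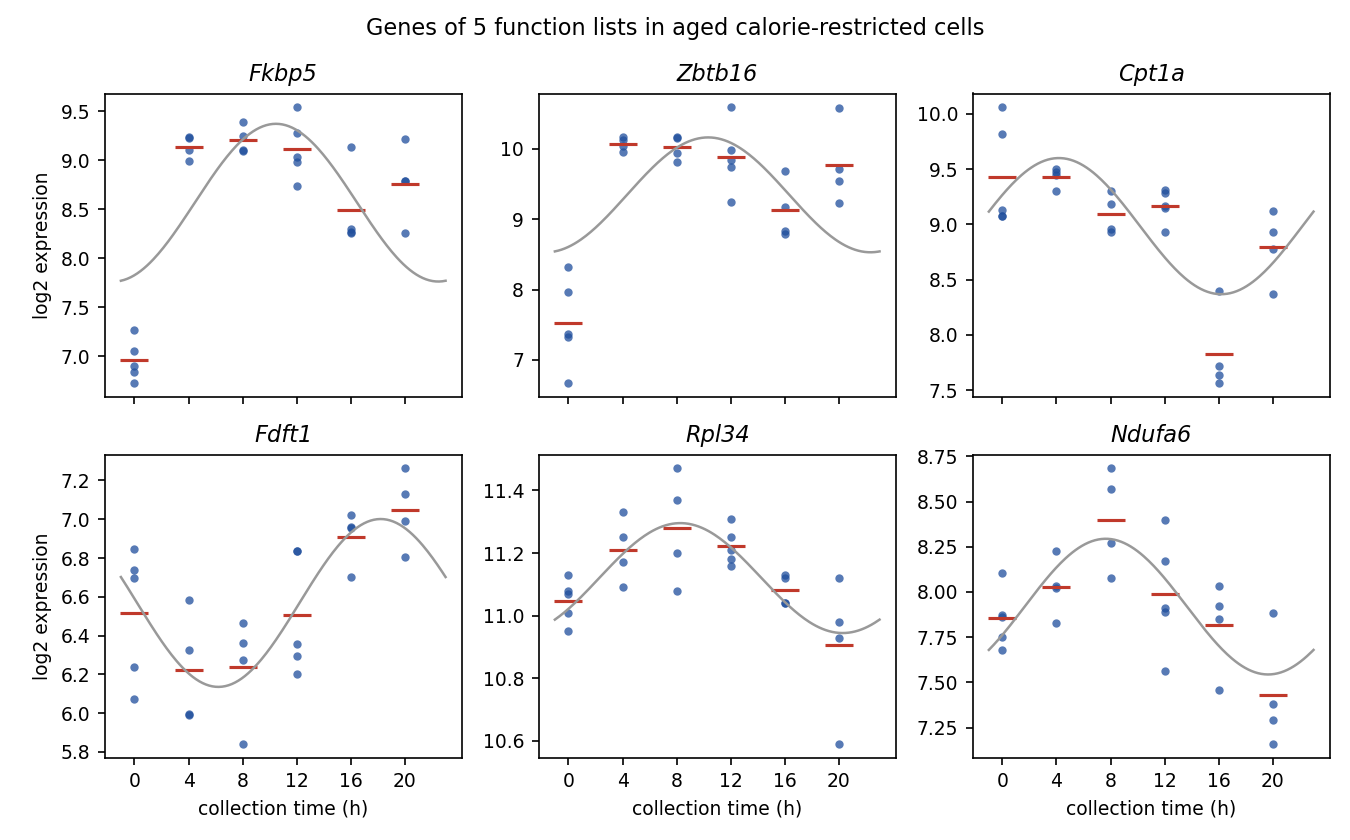
Log2 expression (vertical axes) by collection time in hours (horizontal axes) for 6 genes of the glucocorticoid, fatty acid oxidation, sterol, ribosomal protein and oxidative phosphorylation lists in aged calorie-restricted cells, with 1 dot per array, a red bar at each time-point mean and the fitted cosine in grey. Fkbp5 and Zbtb16 are lowest at T0, Cpt1a at T16, Fdft1 is highest at T16 and T20, and Rpl34 and Ndufa6 are lowest at T20.

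Genes that burn fat and genes that make it were listed separately, and no test compared their peak times. Of 22 tested genes of fatty acid oxidation 5 were rhythmic (22.7%, near the 16.5% of all genes), 3 of them in the T4 window. Cpt1a, the carnitine palmitoyltransferase that admits long-chain fatty acids to mitochondria, read 9.08, 10.06, 9.13, 9.08 and 9.82 at T0, 9.47, 9.30, 9.502 and 9.45 at T4, and 9.18, 8.93, 9.30 and 8.96 at T8. It read 8.93, 9.28, 9.15, 9.31 and 9.16 at T12, 7.71, 7.64, 8.40 and 7.57 at T16, and 8.37, 9.12, 8.78 and 8.93 at T20 thereafter. Of the T16 arrays 3 were below every other array. The means were 9.43 at T0 and T4, 9.09 at T8, 9.165 at T12, 7.83 at T16 and 8.80 at T20. The fitted curve peaked at 4.18 h with a 2.35-fold range (adjusted p = 4.78e-05), but the means departed from the cosine (adjusted p of departure = 0.00415). Eci2, an enoyl-CoA isomerase, peaked at 4.81 h (amplitude 0.54), Cpt1b, the muscle form of the palmitoyltransferase, at 3.62 h (0.38), the thiolase Acaa2 at 6.05 h (0.28) and Etfdh, which passes electrons from fatty acid oxidation to ubiquinone, at 0.21 h (0.32). The list mean was lowest at T16, 0.21 below its day mean. Single-array omissions gave 4 to 8 rhythmic members, with 8 when T12 replicate 4 was left out.

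Of 19 tested genes of fatty acid and triglyceride synthesis 9 were rhythmic (47.4% against 16.5%), with 5 peaks in the T20 window, 2 in T12, 1 in T16 and 1 in T0. Scd1, the stearoyl-CoA desaturase, gave 9.30, 9.48, 9.39, 9.93 and 9.38 at T0, 8.52, 8.80, 8.91 and 8.50 at T4, and 8.40, 8.19, 8.89 and 8.66 at T8. It continued with 9.16, 8.94, 9.10, 9.46 and 8.90 at T12, 9.57, 9.59, 9.71 and 9.33 at T16, and 9.36, 9.47, 9.40 and 9.70 at T20. All T4 and T8 arrays were below all T0, T16 and T20 arrays, and the curve peaked at 19.1 h with a 2.13-fold range (adjusted p = 1.53e-06). Fasn, fatty acid synthase, peaked at 19.99 h (amplitude 0.33), Acly, which makes cytosolic acetyl-CoA, at 19.2 h (0.26), Acaca, acetyl-CoA carboxylase, at 19.1 h (0.29) and the desaturase Fads2 at 21.3 h (0.35). Elovl6 peaked at 22.1 h, Dgat1 at 17.4 h, and Thrsp and Elovl5 at 11.02 and 12.6 h. Without T0 arrays of every arm 5 of 19 were called, and 1408 of all 11853 genes.

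All 6 rhythmic genes of sterol synthesis and uptake, of 18 tested (33.3% against 16.5%), peaked between 18 and 22 h. Fdft1, squalene synthase, read 6.85, 6.24, 6.74, 6.07 and 6.70 at T0, 6.33, 5.99, 6.58 and 5.995 at T4, and 6.27, 5.84, 6.47 and 6.36 at T8. It read 6.29, 6.36, 6.20, 6.83 and 6.83 at T12, 6.96, 7.02, 6.70 and 6.96 at T16, and 6.80, 7.26, 6.99 and 7.13 at T20 after that. T16 and T20 arrays were above all T4 and T8 arrays, and the curve peaked at 18.2 h with a 1.82-fold range (adjusted p = 3.56e-05). Fdft1 overlaps Ctsb on the genome. Nsdhl had an amplitude of 0.57, Sc5d 0.64, Fdps, farnesyl diphosphate synthase, 0.36, Mvk, mevalonate kinase, 0.23 and Srebf2, which encodes the activator of these genes, 0.24, with peaks from 21.2 h (Sc5d) to 21.9 h (Srebf2). The list mean was 0.24 above its day mean at T20 and 0.19 below at T8. The count was 4 of 18 with quantile normalization or without T0, and 3 without T20. With the 3 cell type scores as covariates it was 10, of which 6 peaked in the T0 window. The call of Mvk ended without T20 replicate 2.

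Cytosolic ribosomal proteins were highest around T8 and lowest at T20. Of 57 tested, 20 were rhythmic (35.1% against 16.5%), 19 with a peak in the T8 window and Rps15 just beyond it at 10.04 h. Rpl34 read 11.01, 10.95, 11.07, 11.13 and 11.08 at T0, 11.17, 11.09, 11.25 and 11.33 at T4, and 11.37, 11.20, 11.47 and 11.08 at T8. It read 11.25, 11.16, 11.18, 11.31 and 11.21 at T12, 11.12, 11.04, 11.04 and 11.13 at T16, and 11.12, 10.93, 10.98 and 10.59 at T20 next. The groups overlapped and 1 T20 array stood low. The curve had a 1.28-fold range (adjusted p = 0.00202), and among the 20 the range ran from 1.12-fold (Rps20) to 1.76-fold (Rps19). The mean over the list was 0.14 below its day mean at T20, with array means of 10.7 to 11.0, and 0.08 above at T8, with array means of 11.0 to 11.2. Without T20 arrays of every arm 1 of 57 was called, and without T20 replicate 4 alone 8 were called. Leaving out T20 replicate 2, T8 replicate 1 or T8 replicate 3 gave 12, in the arm fitted alone 12 and with quantile normalization 14. In the arm fitted alone 1472 of all 11853 genes were called. Ribosomal protein genes have many near-identical pseudogene copies, and how the probe sets divide signal among them was not tested. Of 24 translation factors 2 were rhythmic (8.33%), below the share of all genes.

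Genes of oxidative phosphorylation were also lowest at T20 on average. Of 49 tested genes 10 were rhythmic, 20.4% and near the 16.5% of all genes. The T8 window held 8 of them, Ndufv2, Ndufa6, Cox5b, Cox8a, Ndufa2, Ndufa5, Atp5l and Ndufb8. Ndufa6, a subunit of complex I, gave 7.75, 8.10, 7.86, 7.68 and 7.88 at T0, 8.02, 7.83, 8.22 and 8.04 at T4, and 8.27, 8.07, 8.57 and 8.68 at T8. It gave 7.91, 7.89, 7.56, 8.17 and 8.40 at T12, 8.03, 7.85, 7.46 and 7.92 at T16, and 7.16, 7.38, 7.88 and 7.29 at T20 from T12. Of the T20 arrays 3 were below every array of the other times, and the curve peaked at 7.64 h with a 1.68-fold range (adjusted p = 0.00445). Uqcrc1, a core subunit of complex III, and Atp5a1, the alpha subunit of ATP synthase, peaked on the other side at 0.69 and 22.6 h. The list mean was 0.26 below its day mean at T20, with array values from 8.17 to 8.80 there against 8.49 to 8.90 at the other times. Without T20 arrays of every arm 1 of 49 was called, and with quantile normalization 15. The score of pericytes and smooth muscle was likewise lowest at T20, 0.24 below its day mean, with none of its 8 members rhythmic, and its part in these counts was not tested.

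The rhythmic genes of the extracellular matrix list peaked around T20 or T0. Of 41 tested genes 10 were rhythmic (24.4% against 16.5%), 8 of them in the T20 window and 2 in T0, and the mean of all 41 was 0.07 above its day mean at T20. Without T20 arrays of every arm 6 were called, 4 of them in the T20 window, and 1458 of all 11853 genes were called. Col5a1, a chain of the fibril-nucleating collagen V, read 9.76, 9.51, 9.59, 9.496 and 9.30 at T0, 9.13, 8.93, 8.997 and 8.79 at T4, and 8.92, 8.34, 8.67 and 9.01 at T8. It read 8.60, 8.73, 8.81, 9.06 and 9.06 at T12, 9.59, 8.99, 9.21 and 8.92 at T16, and 9.64, 9.68, 9.61 and 9.49 at T20 in the rest of the day. All T0 and T20 arrays were above all T4, T8 and T12 arrays, and the curve peaked at 21.1 h with a 1.89-fold range (adjusted p = 7.33e-09). Its partner chains Col5a2 and Col5a3 peaked at 20.3 and 22.96 h. Col6a1 peaked at 20.3 h, Col3a1 at 21.4 h, and the basement membrane genes Col4a1, Lamc1, Lama2 and Hspg2, which encodes perlecan, at 21.5, 21.5, 20.3 and 21.5 h. Among 23 tested genes that process matrix 7 were rhythmic (30.4%), and Mmp2, the gelatinase, Lox and Loxl1, which crosslink collagen, and the collagen chaperone Serpinh1 peaked from 19.2 h (Serpinh1) to 19.96 h (Mmp2). The other 3 peaked earlier, the inhibitor Timp3 at 10.7 h and the lysyl hydroxylases Plod1 and Plod3 at 11.03 and 16.6 h. The processing list had its highest mean at T16, and without T20 arrays 4 of its 23 genes were called, 1 in the T20 window. Of the fibroadipogenic progenitor markers, which include collagens, 1 of 8 was rhythmic, Col3a1, while Dcn, Dpt and Gsn were not called (adjusted p from 0.228 to 0.681).

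**Figure D4:**
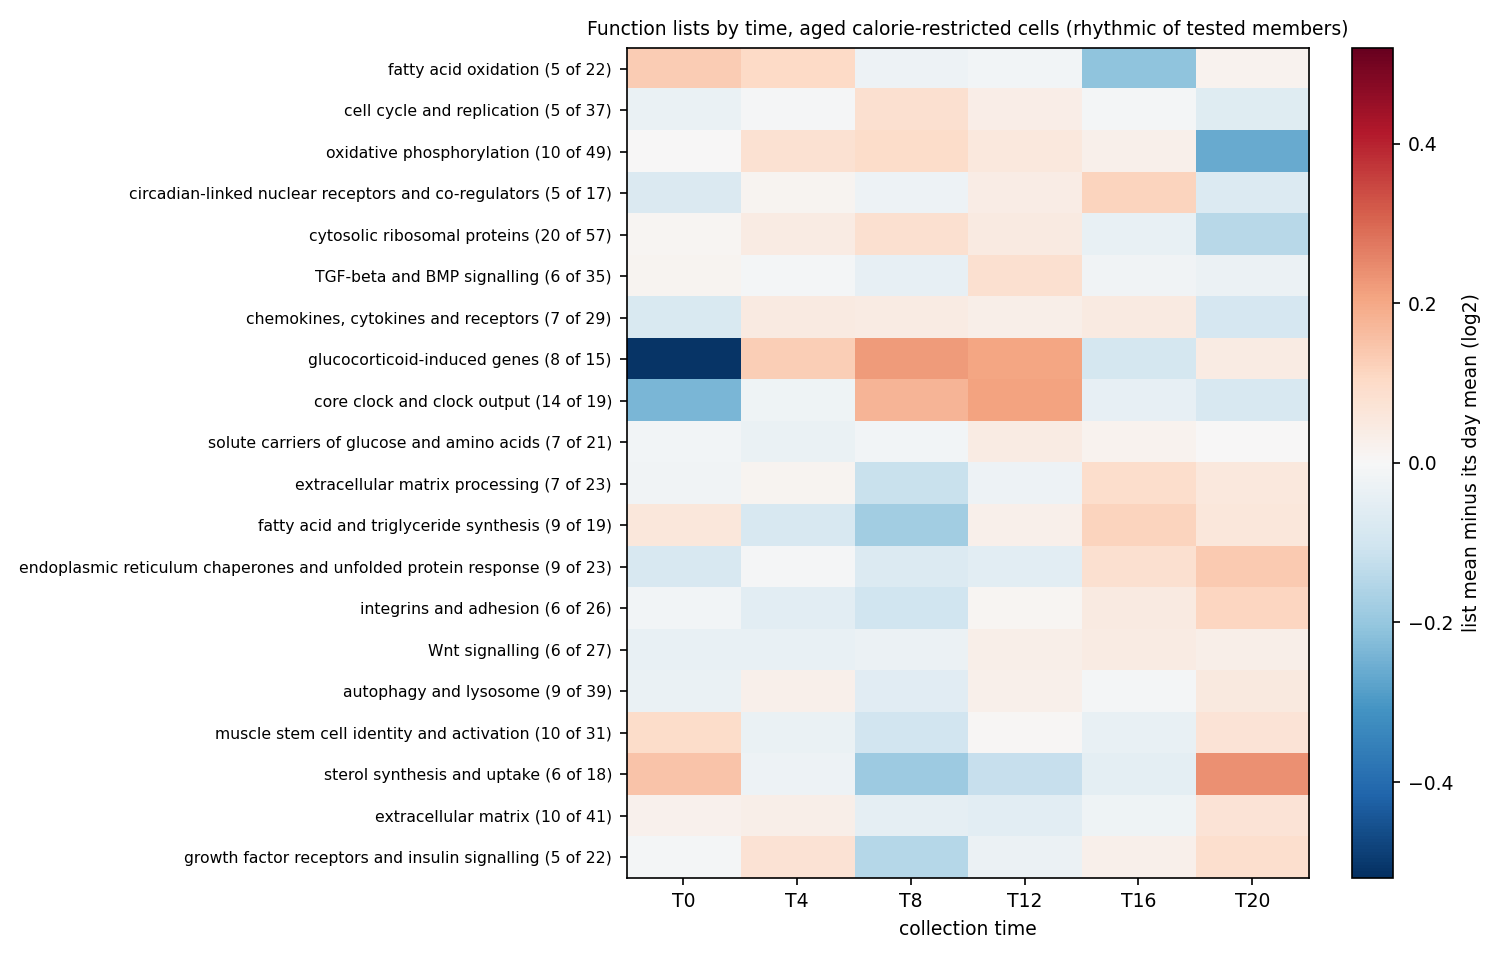
Mean of each function list minus its day mean (colour, log2 units, red above and blue below) at the 6 collection times (horizontal axis) for the lists with 5 or more rhythmic genes (vertical axis, with rhythmic of tested members), ordered by mean peak time of the rhythmic members. Glucocorticoid-induced genes reach 0.51 below their day mean at T0, oxidative phosphorylation 0.26 below at T20, and sterol genes 0.24 above at T20.

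Chaperones of the endoplasmic reticulum also leaned to the late part of the day. Of 23 tested genes of the chaperone and unfolded protein response list 9 were rhythmic (39.1% against 16.5%), 3 in the T0 window, 2 in T20, 3 in T16 and 1, Herpud1, in T12. The mean of all 23 was 0.14 above its day mean at T20 and 0.08 above at T16. At T0 it was lowest, 0.08 below. Hspa5, the main luminal chaperone BiP, read 8.96, 9.14, 8.99, 8.99 and 8.76 at T0, 9.08, 8.68, 8.90 and 8.81 at T4, and 8.93, 8.43, 8.57 and 8.61 at T8. It read 8.69, 8.54, 8.19, 9.02 and 8.39 at T12, 8.72, 8.996, 8.86 and 9.04 at T16, and 8.88, 8.93, 9.05 and 8.80 at T20 at T12 to T20. The groups overlapped, T12 had the lowest mean, and the range was 1.32-fold with a peak at 22.2 h (adjusted p = 0.0333). Hsp90b1 peaked at 19.97 h, Calr, calreticulin, at 20.1 h, Sel1l at 22.3 h, Dnajc3 at 22.9 h and Creld2 at 15.1 h. Ddit3, the stress factor CHOP, peaked at 14.5 h with an amplitude of 0.26 (adjusted p = 0.00162) and kept its call in all 26 omissions. The stress factors Atf4, Atf6 and Xbp1 were not called (adjusted p 0.472, 0.566 and 0.973). Without T20 arrays of every arm 5 of 23 were called, and 1458 of all 11853 genes.

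The endoplasmic reticulum stress element, a composite motif bound by NF-Y together with ATF6, was searched on both strands of the same promoters. It was in 5 of the 9 promoters of rhythmic members (55.6%), in 8 of 20 promoters of tested members (40%) and in 0.119% of all promoters. The list was chosen by function and holds known targets of this response, so its share is no test. The bases before the start of Hspa5, on the plus strand at chr2:34771840-34772089, and of Hsp90b1, on the minus strand at chr10:86705445-86705694, are shown because these are the main chaperones of the list, with peaks at 22.2 and 19.97 h. Capitals mark the stress elements, and in Hsp90b1 also a sterol response element, TCACCCCAC.
Hspa5: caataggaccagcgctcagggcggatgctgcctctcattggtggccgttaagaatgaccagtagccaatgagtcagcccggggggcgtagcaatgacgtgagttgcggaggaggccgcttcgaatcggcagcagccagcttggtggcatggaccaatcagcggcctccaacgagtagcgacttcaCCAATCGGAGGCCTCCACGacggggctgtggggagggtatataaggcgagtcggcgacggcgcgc
Hsp90b1: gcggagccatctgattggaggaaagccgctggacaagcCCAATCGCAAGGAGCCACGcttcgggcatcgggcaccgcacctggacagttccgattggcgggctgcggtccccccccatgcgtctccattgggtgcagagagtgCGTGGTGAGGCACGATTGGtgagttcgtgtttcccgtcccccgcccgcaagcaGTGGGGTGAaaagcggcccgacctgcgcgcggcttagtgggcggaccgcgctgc

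Genes of stem cell identity and activation were rhythmic in 10 of 31 tested (32.3% against 16.5%). Chrdl2, a BMP antagonist, had the widest curve, 2.03-fold with a peak at 18.5 h (adjusted p = 1.72e-05). Fgfr4 peaked at 22.1 h, Ncam1 at 20.9 h, Fgfr1 at 21.1 h, Cd34 at 23.2 h, Megf10 at 2.27 h and Myod1, the commitment factor, at 20.6 h with an amplitude of 0.23. The T16 window held 3 of the 10, Gpx3 (peak 15.2 h), Itgb1 and Tenm4. Pax7 was not called (amplitude 0.20, adjusted p = 0.0942), nor were Myf5, Vcam1 and Calcr (adjusted p from 0.138 to 0.234). With the 3 cell type scores as covariates 6 of 31 were called, and 1610 of all 11853 genes. The mean of the 13 tested muscle stem cell markers, of which 5 were rhythmic, was 0.12 above its day mean at T0, 0.13 above at T20 and 0.16 below at T8. Its array values at T8, 9.46 to 9.59, lay below all those of T0 and T20, 9.72 to 9.94, and its part in the lists that peak at T20 or T8 was not tested. Among Notch genes 3 of 15 were rhythmic (20%), Numb, which antagonises the receptor, at 22.6 h, the ligand Dll1 at 0.49 h and the coactivator Maml1, whose call was lost in 15 of 26 single-array omissions. Among Wnt genes 6 of 27 were (22.2%), led by the co-receptor Lrp5 at 23.3 h. Of 35 genes of TGF-beta and BMP signalling 6 were rhythmic (17.1%), and 4 of these, Id4, Id3, Smad1 and Eng, peaked in the T12 window. Smad1 lost its call without T0 replicate 4, T12 replicate 1, T12 replicate 3 or T20 replicate 4. These signalling lists were near the background share.

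Other metabolic and signalling genes were rhythmic as single members. Pfkfb3, which sets the level of a glycolytic activator, peaked at 4.33 h with a 2.02-fold range, while Gapdh and Pkm peaked at 21.2 and 21.01 h with ranges of 1.19-fold and 1.25-fold, and Slc2a1, the glucose transporter GLUT1, at 16.6 h. The glycolysis list had 4 rhythmic genes of 16 (25.0%). Cathepsins Ctsb, Ctsl and Ctsz peaked at 20.4, 21.03 and 21.7 h and Tfeb, the lysosomal regulator, at 14.1 h, within a list of 39 autophagy and lysosome genes of which 9 were rhythmic (23.1%). Of 29 chemokine, cytokine and receptor genes 7 were rhythmic (24.1%), with Il6ra at 10.2 h and Il33 at 12.1 h. Cirbp, the cold-induced RNA-binding protein, peaked at 0.16 h with a 1.75-fold range. Hsp90aa1 and Hspb1 peaked at 21.2 and 18.03 h, with 3 of 21 heat shock genes rhythmic (14.3%). Also near the 16.5% of all genes were splicing factors (4 of 27, 14.8%), ribosome biogenesis (4 of 29, 13.8%) and the tricarboxylic acid cycle (3 of 22, 13.6%). So were cell cycle (5 of 37, 13.5%), proteasome (4 of 30, 13.3%), mitochondrial dynamics and biogenesis (3 of 24, 12.5%) and DNA repair (3 of 25, 12%). Lower shares were those of immediate early genes (2 of 22, 9.09%), interferon-responsive genes (2 of 25, 8%) and actin and serum response factor targets (2 of 28, 7.14%). Cell cycle inhibitors (1 of 11), amino acid response (1 of 11), NAD metabolism (1 of 12) and MAP kinase feedback (1 of 14) were too short to read a share from.

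In 207 genes, 1.75%, the 6 means departed from the cosine by limma's test at the same threshold, and 47 of these were also called rhythmic. After Fkbp5 and Zbtb16, the smallest p were those of Foxo3, Egfr, H1f8, Pik3r1, E130307A14Rik and Tsc22d3. Foxo3, a factor of stress resistance and stem cell quiescence, had means of 9.95 at T0, 10.68 at T4, 10.69 at T8, 10.49 at T12, 10.16 at T16 and 10.58 at T20. T0 was its lowest point (adjusted p of departure = 2.79e-05). Egfr, the EGF receptor, alternated, with 9.02 at T0, 9.86 at T4, 9.34 at T8, 9.63 at T12, 9.27 at T16 and 9.86 at T20 (adjusted p = 5.56e-05). Pik3r1, a regulatory subunit of PI3 kinase, was lowest at T0 and highest at T20, with 9.40 at T0, 9.95 at T4, 9.82 at T8, 9.80 at T12, 9.77 at T16 and 10.15 at T20 (adjusted p = 0.00138). H1f8 ran the other way, highest at T0 with a mean of 5.75 against 4.65 at T4. E130307A14Rik had its lowest mean at T16, 7.03. The number of departures was 120 without T20 replicate 4, 126 without T12 replicate 4, and 47 in the arm fitted alone.

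Markers of other cell types were counted against the same 16.5% of all genes, in lists too short to read a share from. None of 12 myofibre, 8 pericyte and smooth muscle, 3 neutrophil, 3 erythroid and 2 adipocyte markers were rhythmic. Of the fibroadipogenic progenitor markers 1 of 8 was, of tenocyte markers 1 of 6 (Scx), of lymphocyte markers 1 of 6 (Cd8a), of macrophage and monocyte markers 2 of 5 (Csf1r and C1qa, the latter lost without T0 replicate 2 or 3) and of endothelial markers 3 of 8 (Tek, Kdr, Pecam1). Of 6 tested Schwann cell markers 4 were rhythmic, Pmp22, Mbp, Sox10 and Cnp, all with a peak in the T12 window. Mbp, myelin basic protein, gave 10.58, 9.74, 9.88, 10 and 10.62 at T0, 10.21, 10.07, 10.56 and 10.05 at T4, and 10.09, 10.79, 11.27 and 10.29 at T8. It gave 10.90, 10.71, 10.71, 10.73 and 10.70 at T12, 10.55, 10.82, 10.94 and 10.55 at T16, and 10.42, 10.64, 10.09 and 10.81 at T20. All T12 arrays were above all T0 arrays (range 1.55-fold, adjusted p of the cosine = 0.0182). The 6-level test did not call Mbp (adjusted p = 0.0799). Without T0 arrays of every arm none of the 6 was called, and without T0 replicate 2 alone 2 were. In bulk RNA fewer cells of a type and less RNA per cell cannot be told apart. Array-to-array spread was wider for some other types, with an SD of the score of 0.45 for erythroid, 0.43 for myofibre and 0.34 for tenocyte markers against 0.12 for muscle stem cell markers.

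The arm's rhythmic genes were set beside those of the other 2 arms, which share no array with it. All calls came from 1 fit in which the arms share each gene's estimate of spread, so the lists are not independent. How far that raises the overlaps was not tested. In adult CR 2650 genes were rhythmic, 22.4% of those tested, and 929 were common to both, 47.6% of the aged CR list and 35.1% of the adult CR list. Of the 929, 73.0% peaked within 2 h of each other. In aged control 1276 genes were rhythmic, 10.8%, and 484 were common, 24.8% of the aged CR list and 37.9% of the aged control list, with 61.6% within 2 h. A gene called in 1 arm and not in another is not thereby shown to differ.

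The test of the difference itself called 46 genes between aged CR and aged control, 0.388% of those tested. Of these the amplitude was larger in aged CR for 32 and in aged control for 14, and 16 were rhythmic in both arms. The count was 0 on ranks, 11 with a block over the aged mice of both diets, 16 with these 2 arms fitted alone, 22 without T20, 81 with a 12 h curve added and 106 with the first residual component as covariate. Arntl peaked at 20.05 h in aged CR and at 23.5 h in aged control, with amplitudes of 1.55 and 1.30 (adjusted p of the difference = 6.86e-04). Sphk2 peaked at 8.14 h against 10.7 h (adjusted p = 6.86e-04), Dbp at 6.92 h against 10.3 h (0.0194) and Nr1d2 at 6.55 h against 9 h (0.0145). In each of these 4 the aged CR curve was the earlier. For Per1, Per2, Per3, Npas2, Tef, Hlf, Wee1, Clock, Ciart, Nfil3 and Klf9 no difference was called. Abat had an amplitude of 0.73 in aged CR and 0.11 in aged control (0.00496). Gpnmb, a lysosomal and macrophage glycoprotein, peaked at 6.52 h against 21.04 h (0.00582), Acaa2 at 6.05 h against 13.3 h (0.00582), Sec22b, a vesicle SNARE, at 23.9 h against 7.13 h (0.0093), Creb3l1, a regulator of secretion, at 19.5 h against 0.20 h (0.0105) and H2-DMa, a class II antigen-loading factor, at 7.85 h against 19.01 h (0.0105).

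**Figure D5:**
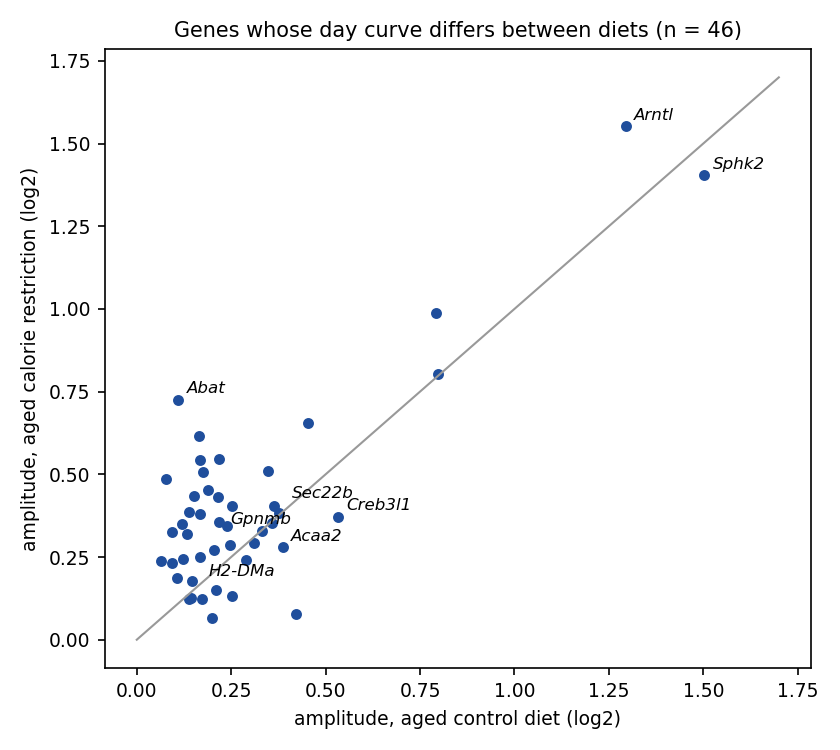
Fitted amplitude in aged calorie-restricted cells (vertical axis, log2 units) against that in aged control cells (horizontal axis) for the 46 genes whose 24 h curve differed between them, with 8 genes named and the line of equal amplitude in grey. The points of 32 genes lie above the line and those of 14 below it, and Arntl and Sphk2, with the largest amplitudes, lie near it and differ in peak time.

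Between aged CR and adult CR the same test called 1 gene, Fzd7, a Wnt receptor, which is 0.00844% of those tested. Fzd7 peaked at 19.2 h in aged CR and 7.39 h in adult CR, with amplitudes of 0.28 and 0.20 (adjusted p = 0.0199), and at an unadjusted p under 0.05 the test passed 1169 genes. Its call was lost in several alternatives, among them array weights and leaving out T20 replicates 1, 2 or 3 or T8 replicates 2 or 3. Arntl peaked at 20.05 and 20.1 h in these 2 arms (adjusted p of the difference = 0.682).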

How the data were processed

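RNA of muscle stem cells was measured on one-colour expression arrays after amplification from 25 ng of RNA over 17 cycles. The deposited values are on a log2 scale and were made by the authors with RMA, per the submitters' processing notes. The log base was inferred from their range, 1.19 to 12.8, and RMA compresses differences of dim genes. Batch and scan date are not given in the sources used here, and since a collection day held 1 time point, day and time cannot be fully told apart. Precision is limited by how many arrays there are. In aged CR an array's mean correlation with the others of its time was 0.958 to 0.964 at T0 and 0.961 to 0.966 at T20. At T12 it was 0.976 to 0.979. Of 45141 probe sets, 28898 named 1 gene symbol, 551 several and 15692 none, and 28689 of the single symbols matched RefSeq. Probe sets whose mean over all arrays was at or above the 40th percentile (4.50) were kept, the brightest per gene, which left 11853 genes. Each of the 4 arms had its own mean and its own 24 h sine and cosine terms in 1 limma 3.58.1 fit (R 4.3.3) over all arrays, so that arms share the estimate of spread. All adjusted p-values are limma's, adjusted by Benjamini-Hochberg over all 11853 genes, with a threshold of 5%. Errors are standard errors unless given as SD. A list's level in an array is the mean of its tested members. The scripts were tested on simulated data.

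Members and gene lists were chosen with earlier results of these data known. Named genes were every measured clock gene, the 8 rhythmic genes of largest amplitude in each peak window, the 4 of smallest p in each function list with 3 or more rhythmic members, the 8 of smallest p for a departure from the cosine and for each difference between arms, and the brightest marker of each cell type. List members beyond these 4, the genes given without a call and Ndufa6 in the plots by array were chosen after their values were seen. By rule, arrays were given for the gene of largest amplitude in each window and for 6 clock genes. Those of Fkbp5, Zbtb16, Cpt1a, Fdft1, Scd1, Col5a1, Hspa5, Mbp and Abat were picked by hand beyond that rule. Rpl34 had the smallest p of its list, whereas in the list of Ndufa6 that gene was Uqcrc1. Alternatives changed the filter, the choice of probe set, the normalization, the covariates, the arms fitted, the blocks and the arrays used, and the scale (normal scores of ranks). Leaving out T0, the block over the aged mice of both diets and the counts of list members under alternatives were added after seeing the data. Promoters came from RefSeq (GRCm38.p6) and matched 9543 of the 11853 genes. Some genes are not reported here.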

Additional observations from a re-analysis of the deposited data

Results flagged for a closer look

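Among 132 groups of arrays, 22 genes at 6 times, 9 held 1 array that stood apart from the rest of its group, and chance alone flags about 1 in 20 groups. At T0, 1 array of Abat read 9.28 with the next at 8.62, 1 of Scd1 read 9.93 with the next at 9.48, and 1 of Per2 read 5.44, below the next at 6.42. At T4, 1 array of Dbp was low at 7.51 (next 7.87), 1 of Hopx was low at 5.71 (next 6.98) and 1 of Sphk2 was high at 8.33 (next 8.13). At T12, 1 array of Mbp was high at 10.9 (next 10.7). At T16, 1 array of Fkbp5 was high at 9.14 (next 8.30). At T20, 1 array of Per2 was low at 6.98 (next 7.86).

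Of the 46 curves that differed from aged control, the 8 of smallest p were those of Arntl and Sphk2 (limma adjusted p 0.000686 each), Abat (0.00496), Acaa2 and Gpnmb (0.00582 each), Sec22b (0.0093), Creb3l1 and H2-DMa (0.0105 each). Against adult CR the curve of Fzd7 differed (0.0199).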

How the results depend on the processing

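The count of 1951 rhythmic genes stayed between 1408 (without T0) and 2490 (no filter) apart from the rank-based test, which called 1077. Single-array omissions gave 1747 to 1939. With a replicate block within each arm it was 1837. Deviations of same-numbered arrays had a mean correlation of 0.0018 over 61 pairs within the arm and 0.016 over 24 pairs across diets. Across diets 6 of these 24 pairs exceeded 0.1, against 12 of 80 pairs of other numbers. Whether the numbers pair arrays cannot be told from these means. By window, T4 held 384 genes with no filter and 156 at the 60th percentile, and T8 held 199 without T20. On ranks the windows from T0 to T20 held 219, 130, 181, 198, 128 and 221. The 6-level test called 1463 genes and the departure test 47 in the arm alone. On ranks both called 0 (4266 and 1852 at an unadjusted p under 0.05). Departures ranged from 120 (without T20 replicate 4) to 278 over single-array omissions, with 126 without T12 replicate 4. The 46 differences from aged control became 16 in those arms alone, 81 with a 12 h curve added, 106 with the first residual component as covariate, 22 without T20, 11 with a block over the aged mice of both diets and 0 on ranks (1639 at an unadjusted p under 0.05 in the fit as reported). The single difference from adult CR became 10 with that component and 0 at the 60th percentile, with averaged probe sets, the replicate block, array weights, arrays numbered 1 to 4, no T20 or cell type scores, and ranged from 0 to 1 over omissions, with 0 without T20 replicates 1, 2 or 3 or T8 replicates 2 or 3. The cause was not tested. Of 180 named rhythmic genes 147 kept their call in all 26 omissions. In the other alternatives followed gene by gene, which did not include leaving out T0, 100 kept it throughout. None reversed in any of these.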

Other observations

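Other named groups also spread over the day. Among carriers of glucose and amino acids 7 of 21 were rhythmic (33.3% against 16.5% of all genes), but 2 of 21 with the 3 cell type scores as covariates and 4 of 21 without T20. Slc38a4 peaked at 22.2 h with a 1.84-fold range, Slc38a1 at 5.42 h and Slc6a6, the taurine transporter, at 10.4 h. Of the growth factor and insulin signalling list 5 of 22 were (22.7%), with Rheb, an activator of mTORC1, at 7.35 h (1.92-fold) and Rptor, which encodes raptor, on the other side of the day at 23.2 h (1.82-fold). Integrin and adhesion genes were rhythmic in 6 of 26 (23.1%), the laminin receptor chain Itga6 at 15.3 h (1.98-fold), Itgb1 at 16.7 h and Itgb5 at 20.7 h. The fibronectin receptor chain Itga5 peaked at 16.9 h (2.04-fold) and lost its call without T4 replicate 4.

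In the tricarboxylic acid cycle list 3 of 22 were rhythmic (13.6%), Pdha1, a subunit of pyruvate dehydrogenase, at 11.9 h, Idh3a at 13.4 h and Ogdh at 15.9 h. Pdha1 lost its call without T0 replicate 1 and Ogdh without T4 replicate 4 or T16 replicates 1 or 2. Tkt and Pgd, enzymes of the pentose phosphate pathway, peaked close together at 10.5 and 10.97 h with ranges of 1.69-fold and 1.79-fold. Of 16 genes of the ubiquitin ligase and FoxO target list 4 were rhythmic (25.0%), with Fbxo30 at 4.26 h and Ccng2 at 19.5 h (1.99-fold). Ccn1 and Ccn2, related matricellular YAP targets, peaked at 1.05 and 7.31 h. Spry2, a feedback inhibitor of receptor tyrosine kinases, was the single rhythmic gene of 14 in its list, at 21.9 h (1.76-fold).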
